A study of Homo sapiens with 12 samples.

Results

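The genes described here are 29 listed target genes of the tumour suppressor p53 that lie outside the BCL2 family of apoptosis regulators, among 20332 genes in the table. They are a named list of known targets taken by gene symbol, a rule that uses no measured value. The list itself was chosen with earlier results of these data known. All 29 were found in the table and matched to RefSeq entries on GRCh38.p14. Of these, 28 had enough counts to be tested in each comparison. SPATA18, a p53-induced mitochondrial quality control gene, was not tested, with at most 13 counts in any library.

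p53 is a transcription factor that is kept low by the ubiquitin ligase MDM2, itself a p53 target, and that accumulates after DNA damage and other stresses. Its targets pause the cell cycle, repair DNA, shift metabolism and sensitise cells to death, and several of them feed back on p53. A number of the same genes are also induced by other stress-responsive factors, so their transcripts are not readouts of p53 alone. p53 is regulated largely at the protein level, which these data do not measure.

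The samples were bulk RNA from 2 established cell lines from human endometrial cancers, Ishikawa and KLE. Each line was cultured without copper or in 200 µM CuCl2, a copper(II) salt, for 24 h. The labels call the controls both untreated and vehicle, and they are called untreated here. Each of the 4 groups had 3 libraries that the labels name as independent biological replicates, which gives 12 libraries in all. Each line is a single model of the disease, and the p53 status of either line is not given here by labels or files. In bulk RNA, fewer cells with a transcript and less of it per cell cannot be told apart.

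Libraries held 14050275 to 25057003 counts, and Ishikawa control 2 was the deepest. Epithelial identity was present in every group: EPCAM, an epithelial adhesion molecule, averaged 762 to 1037 TPM (abundance per transcript length, scaled to the library) over the 4 groups. The Müllerian factor PAX8 averaged 236 to 438 TPM. The summed level of the epithelial and Müllerian markers was 3207 to 3508 CPM (counts scaled to library size) in untreated and 2424 to 2479 CPM in treated Ishikawa cells. The KLE sums were 4553 to 4618 CPM untreated and 5159 to 5289 CPM treated. Stromal markers summed to 11.1 to 65.2 CPM and were lowest in Ishikawa control 2. Leukocyte markers summed to 3.63 to 5.73 CPM in untreated and 7.52 to 9.35 CPM in treated Ishikawa cells, and to 11.3 to 14.9 and 19.4 to 23.5 CPM in KLE cells. Endothelial markers summed to 4.47 to 6.51 and 8.99 to 13.98 CPM in Ishikawa cells, and to 7.05 to 11.3 and 6.33 to 6.77 CPM in KLE cells. The part of these marker levels in the results was not tested. Among the leukocyte markers, CD68 was higher after copper in both lines (log2 changes of 0.80 and 0.74, adjusted p = 0.000954 and 1.62e-07). PTPRC was higher in Ishikawa cells (1.48, adjusted p = 0.00946), at a mean of at most 0.81 TPM in any group. CD14, CD3E and LYZ were not called or not tested in either line. Among the endothelial markers VWF was higher in Ishikawa cells (1.48, edgeR adjusted p = 3.65e-06) and lower in KLE cells (-0.84, adjusted p = 0.0226). CDH5 was lower in KLE cells (-1.33, edgeR adjusted p = 0.00615) and not tested in Ishikawa cells. PECAM1 and KDR were called in neither line. Ishikawa control 2 stood apart from its replicates, with a chi-square per degree of freedom over genes of 8.16 and 12.4 against 2.02 to 3.81 for the other replicate pairs. The chi-square was taken on unscaled counts and can grow with depth, and the part of depth in these values was not tested. Without Ishikawa control 2, 12 of the genes described here were higher and 14 lower in Ishikawa cells, against 12 and 15 with it. The difference between the responses then gave 10 higher and 6 lower, against 10 and 8. Mitochondrially encoded genes took 4.05 to 4.72% of counts in treated KLE libraries and 5.91 to 7.21% in the other libraries.

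p53 binds a response element made of a pair of copies of a 10-base motif, the p53 decamer, and the start-site regions of the genes were searched for it on both strands. RefSeq promoter windows (GRCh38.p14, 250 bases before to 50 after a start site) were held for 23 of the 29 genes, in 36 windows, some of which overlap. A decamer was present in 6 of the 36 windows (16.7%), each from a different gene, against 6.63% of 35116 windows over all genes. Only DDB2, a damage sensor of nucleotide excision repair, had a pair of decamers within 13 bases of each other. That arrangement was found in 2.78% of the windows of these genes and in 10 windows (0.0285%) over all genes. The 6 stretches are shown because they are the parts of these start-site regions with the letters p53 is known to read. Decamers are in capitals and each stretch is 30 bases, read 5′ to 3′ on the strand of its gene.
DDB2, chr11:47214975-47215004, plus strand: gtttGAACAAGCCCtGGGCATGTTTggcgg
FAS, chr10:88991299-88991328, plus strand: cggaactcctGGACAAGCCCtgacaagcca
AEN, chr15:88621296-88621325, plus strand: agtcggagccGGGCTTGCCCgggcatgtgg
FDXR, chr17:74872986-74873015, minus strand: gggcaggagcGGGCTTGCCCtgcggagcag
PLK2, chr5:58460199-58460228, minus strand: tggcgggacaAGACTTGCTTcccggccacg
SESN1, chr6:109009018-109009047, minus strand: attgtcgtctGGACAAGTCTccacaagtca
Counted from the first transcribed base as 1, the first base of the motif lies at position 6 in DDB2 and at -11, -34, -49, -122 and -132 in FDXR, AEN, SESN1, FAS and PLK2. The spacer between the DDB2 decamers is 1 base. A match is a description of letters and not a site of binding, and many p53 elements lie in introns or farther upstream than these windows reach.

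In Ishikawa cells, copper moved these genes in both directions. The DNA damage-inducible genes GADD45B and GADD45A rose 8.61-fold and 7.74-fold, the glycolysis regulator TIGAR rose 2.11-fold, and all 3 death receptors rose. PHLDA3, FDXR and TP53I11 fell by 2.31-fold, 2.30-fold and 2.11-fold. By edgeR's quasi-likelihood test (Benjamini-Hochberg adjusted p under 0.05 over all genes tested), 12 of the 28 genes were higher, 15 were lower and 1, PERP, was not called. Of all 13359 genes tested, 69.1% were called, 33.8% higher and 35.3% lower, so most genes of any kind passed this test in Ishikawa cells. In all 27 called genes the 3 treated libraries lay beyond the 3 untreated ones. Of all genes tested 66.4% were both called and without overlap, 31.4% upward and 35% downward, which is 96.1% of all called genes. The median log2 change was -0.28 over the 28 genes and -0.01 over all genes, and the median absolute log2 change was 0.48 against 0.42.

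In KLE cells the same treatment raised 9 of the 28 genes and lowered 12, and 7 were not called. The largest rises were again GADD45B (2.47-fold) and GADD45A (1.96-fold), and the largest falls were TP53I11 (2.55-fold) and the secreted factor GDF15 (1.85-fold). Over all 13031 genes tested in KLE cells 50.8% were called, 25.6% higher and 25.2% lower, and the 21 called genes are 75% of the 28. The groups did not overlap in any of the 21. Of all genes tested 48.2% were both called and without overlap, which is 95% of all called genes. The median log2 change was 0.03 over the 28 genes and 0.00 over all genes, and the median absolute log2 change was 0.41 against 0.20. A change of at least 2-fold was reached by 6 of the 28 genes in Ishikawa cells, 3 higher and 3 lower, where 7.83% and 8.82% of all genes did so. In KLE cells it was reached by 1 gene in each direction, where 1.86% and 3.59% of all genes did so.

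**Figure D1:**
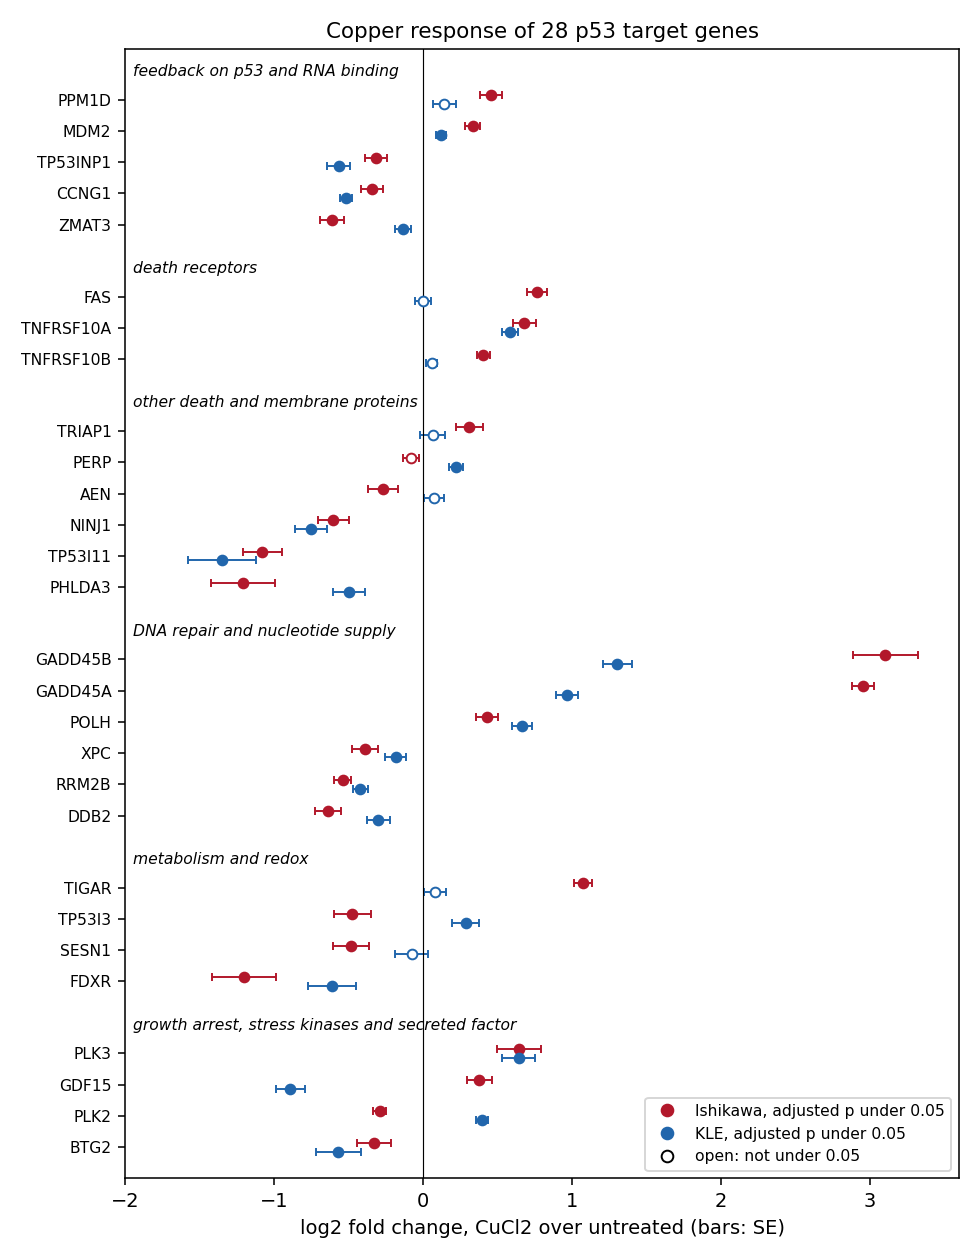
Log2 fold change with CuCl2 (x axis, bars are SE, 3 libraries per group) for the 28 tested p53 target genes, grouped by role, in Ishikawa cells (red) and KLE cells (blue). Filled points have an edgeR adjusted p under 0.05; GADD45A and GADD45B lie farthest right in both lines, and TP53I11 lies among the farthest left.

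Among the genes that feed back on p53, MDM2 is the most widely used as a readout of p53 activity. MDM2, the ubiquitin ligase that degrades p53, stood at 227, 216 and 241 CPM in untreated and 268, 285 and 275 CPM in treated Ishikawa cells. CPM are scaled with TMM factors over all 12 libraries. Untreated KLE libraries were at 232, 228 and 225 CPM and treated ones at 252, 236 and 256 CPM. Treated libraries were above untreated ones in both lines, by a small margin in KLE cells. On the log2 scale the change was 0.34 ± 0.05 (adjusted p = 2.66e-05) in Ishikawa cells and 0.12 ± 0.04 (adjusted p = 0.00437) in KLE cells (edgeR, ± SE). In KLE cells the MDM2 call was lost without treated replicate 3, with upper-quartile factors and with limma on log2 TPM, which changes the test and filter as well as the unit.

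ZMAT3, an RNA-binding zinc finger protein, stood at 59.5, 49.1 and 58.5 CPM in untreated and 34.9, 34.7 and 35.1 CPM in treated Ishikawa cells. The KLE libraries held 60.9, 57.5 and 65.7 CPM before and 56.3, 56.4 and 54.97 CPM after copper. It was lower after copper without overlap in both lines, with a log2 change of -0.61 ± 0.08 in Ishikawa cells (adjusted p = 7.37e-06) and -0.13 ± 0.05 in KLE cells (adjusted p = 0.0368), and the KLE call was lost under 10 of 17 alternative settings. TP53INP1, which promotes p53 phosphorylation and autophagy, stood at 36.4, 34.8 and 38.2 CPM and then 29.7, 27.9 and 26.6 CPM in Ishikawa cells. In KLE cells it stood at 29.2, 27.1 and 30.8 CPM and 19.1, 19.1 and 20.6 CPM. All treated libraries were below the untreated ones, with a log2 change of -0.32 ± 0.08 (adjusted p = 0.002) in Ishikawa cells and -0.56 ± 0.08 (adjusted p = 4.86e-08) in KLE cells. CCNG1, cyclin G1, fell in both lines (-0.34 and -0.52 log2), between 137 and 282 CPM over all libraries. PPM1D, a phosphatase that switches off p53 signalling, rose in Ishikawa cells (0.46 ± 0.07 log2, adjusted p = 6.94e-05), and its KLE value was 0.14 ± 0.07 log2 (adjusted p = 0.104). In all, 2 of the 5 feedback genes rose and 3 fell in Ishikawa cells, and 1 rose, 3 fell and 1 was not called in KLE cells. Each role holds few genes, and 69.1% of all genes were called in Ishikawa cells and 50.8% in KLE cells. The counts within this and the following roles are therefore descriptions only.

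The 3 death receptors all rose in Ishikawa cells, and 1 of them rose in KLE cells. FAS, the receptor of Fas ligand, stood at 40.8, 41.4 and 45.4 CPM in untreated and 67.4, 67.7 and 73.4 CPM in treated Ishikawa cells. Among KLE libraries the untreated ones had 56.6, 59.3 and 57.2 CPM and the treated ones 55.3, 57.8 and 59.9 CPM, and these groups overlapped. Copper gave a log2 change of 0.77 ± 0.07 (adjusted p = 1.04e-07) in Ishikawa cells and -0.00 ± 0.05 (adjusted p = 0.987) in KLE cells. ACTA2, a smooth muscle actin gene on the opposite strand, overlaps 8.93% of the annotated FAS exon bases. ACTA2 rose from a mean of 8.67 to 53.7 CPM in Ishikawa cells (log2 change 2.71, adjusted p = 2.56e-11) and fell from 4.26 to 2.75 CPM in KLE cells (-0.64, adjusted p = 0.0311). Whether the counting used strand is not given in the sources used here, and the part of the overlap in the FAS values was not tested.

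TNFRSF10A and TNFRSF10B encode the TRAIL receptors DR4 and DR5. TNFRSF10A stood at 27, 28.6 and 24.4 CPM in untreated and 41.6, 42.5 and 39.5 CPM in treated Ishikawa cells. KLE cells had 42.9, 46.03 and 45.2 CPM untreated and 67.7, 65.5 and 68.4 CPM treated. It rose without overlap in both lines, by 0.68 ± 0.08 log2 (adjusted p = 2.41e-06) and 0.59 ± 0.05 log2 (adjusted p = 2.57e-12). TNFRSF10B stood at 159, 163 and 162 CPM and then 209.5, 203 and 203 CPM in Ishikawa cells. Untreated KLE libraries were at 214, 205 and 217 CPM and treated ones at 212, 232 and 218 CPM, and these groups overlapped. The log2 change was 0.40 ± 0.04 (adjusted p = 1.35e-06) in Ishikawa cells and 0.06 ± 0.04 (adjusted p = 0.186) in KLE cells.

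Of the other death and membrane proteins 6 were tested, with 1 higher, 4 lower and 1 not called in Ishikawa cells, and 1, 3 and 2 in KLE cells. Over all genes 33.8% were higher and 35.3% lower in Ishikawa cells, and 25.6% and 25.2% in KLE cells. TP53I11, a p53-induced membrane protein at chr11:44932348-44951306, stood at 20.4, 24.7 and 17.1 CPM in untreated and 9.07, 9.40 and 10.1 CPM in treated Ishikawa cells. The KLE libraries held 3.95, 4.37 and 4.12 CPM before and 1.49, 1.73 and 1.65 CPM after copper. It was lower after copper without overlap in both lines, with changes of -1.08 ± 0.13 log2 (adjusted p = 3.98e-06) and -1.35 ± 0.23 log2 (adjusted p = 3.63e-06). PHLDA3, an inhibitor of AKT signalling, stood at 5.01, 6.996 and 4.76 CPM and then 2.63, 2.53 and 1.83 CPM in Ishikawa cells. In KLE cells it stood at 14.2, 16.7 and 13.1 CPM and 9.96, 10.4 and 10.9 CPM. It too fell in both lines, with changes of -1.21 ± 0.21 log2 (adjusted p = 0.000138) and -0.50 ± 0.11 log2 (adjusted p = 0.000175), and the Ishikawa value ranged from -1.78 to -1.004 over the alternative settings.

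NINJ1, a membrane protein that ruptures the plasma membrane of dying cells, stood at 20.6, 23.4 and 18.9 CPM in untreated and 13.1, 14.1 and 12.7 CPM in treated Ishikawa cells. Among KLE libraries the untreated ones had 14.1, 14.4 and 16.8 CPM and the treated ones 9.09, 9.36 and 8.46 CPM. Both lines showed a fall without overlap, with changes of -0.60 ± 0.10 log2 (adjusted p = 0.000119) and -0.75 ± 0.11 log2 (adjusted p = 2.08e-07). PERP, a desmosomal membrane protein, stood at 122, 136 and 133 CPM and then 114, 123 and 119.5 CPM in Ishikawa cells, which overlapped. KLE cells had 188, 206 and 191 CPM untreated and 246, 219.8 and 216 CPM treated. PERP was the single gene called in KLE cells and not in Ishikawa cells, at 0.22 ± 0.05 (adjusted p = 0.000847) against -0.08 ± 0.06 (adjusted p = 0.215). With upper-quartile factors, library totals, limma on log2 TPM or all 12 libraries in 1 fit, it was called lower in Ishikawa cells. AEN, a nuclease of apoptosis, fell in Ishikawa cells (-0.27 ± 0.10 log2, adjusted p = 0.0249), a call lost without Ishikawa control 2, without treated replicate 1 or 2 and under DESeq2. TRIAP1, an inhibitor of apoptosome assembly, rose in Ishikawa cells (0.31 ± 0.09 log2, adjusted p = 0.00621), a call lost with upper-quartile factors, library totals and limma on log2 TPM. Neither was called in KLE cells (0.07 ± 0.07 and 0.06 ± 0.08 log2).

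The DNA repair and nucleotide supply genes split evenly in both lines, with 3 higher and 3 lower in each. The rises were GADD45A, GADD45B and POLH, and the falls were XPC, DDB2 and RRM2B. GADD45A, a stress sensor with roles in repair and arrest at chr1:67685201-67688334, stood at 10.9, 10.97 and 10.97 CPM in untreated and 85.3, 80 and 78.9 CPM in treated Ishikawa cells. Untreated KLE libraries were at 34.3, 29.7 and 30.1 CPM and treated ones at 53.96, 63.1 and 66.7 CPM. The untreated KLE libraries were all above the untreated Ishikawa ones, and the treated KLE libraries were all below the treated Ishikawa ones. On the log2 scale the change was 2.95 ± 0.07 (adjusted p = 1.39e-13) in Ishikawa cells and 0.97 ± 0.07 (adjusted p = 5.29e-10) in KLE cells.

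GADD45B, its paralog and a regulator of stress kinase signalling at chr19:2476127-2478257, stood at 6.91, 8.79 and 14.2 CPM in untreated and 80.7, 88.3 and 76.6 CPM in treated Ishikawa cells. The KLE libraries held 8.67, 8.98 and 10.7 CPM before and 25.1, 21.8 and 23.1 CPM after copper. Ishikawa control 3 was the highest of the untreated libraries, and all treated libraries were above it. Copper gave a log2 change of 3.11 ± 0.22 (adjusted p = 2.85e-05) in Ishikawa cells, with a range of 2.92 to 3.40 when single libraries were left out, and 1.31 ± 0.10 (adjusted p = 9e-15) in KLE cells. POLH, the polymerase that copies past ultraviolet lesions, stood at 46.1, 38.95 and 40.98 CPM and then 55.4, 54.1 and 52.9 CPM in Ishikawa cells. In KLE cells it stood at 31.1, 25.5 and 29.98 CPM and 45.2, 44.6 and 46.99 CPM, and it rose without overlap in both lines. Its log2 change was 0.43 ± 0.07 (adjusted p = 9.68e-05) in Ishikawa cells, a call lost with limma on log2 TPM, and 0.66 ± 0.07 (adjusted p = 5.86e-11) in KLE cells.

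DDB2, whose start-site decamers are printed above, stood at 29.4, 31.5 and 28.8 CPM in untreated and 18.1, 17.5 and 20.3 CPM in treated Ishikawa cells. Among KLE libraries the untreated ones had 30.4, 30.5 and 26.96 CPM and the treated ones 25.1, 23.6 and 22.6 CPM. All treated libraries were below the untreated ones of their line, with a log2 change of -0.63 ± 0.09 (adjusted p = 1.35e-05) in Ishikawa cells and -0.30 ± 0.07 (adjusted p = 0.000835) in KLE cells. RRM2B, the p53-inducible ribonucleotide reductase subunit, stood at 139, 133 and 144 CPM and then 85.5, 95.98 and 94.1 CPM in Ishikawa cells. KLE cells had 80.3, 80.4 and 85.9 CPM untreated and 64.4, 60.01 and 59.8 CPM treated. It fell without overlap in both lines (-0.54 ± 0.06 log2, adjusted p = 8.13e-07, and -0.42 ± 0.05 log2, adjusted p = 2.83e-09). XPC, the lesion-recognition protein of nucleotide excision repair, was also lower in both lines (-0.39 ± 0.09 and -0.18 ± 0.07 log2). The KLE call for XPC (adjusted p = 0.0225) was lost under 8 of 17 alternative settings, and LSM3 on the opposite strand overlaps 6.63% of the XPC exon bases.

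**Figure D2:**
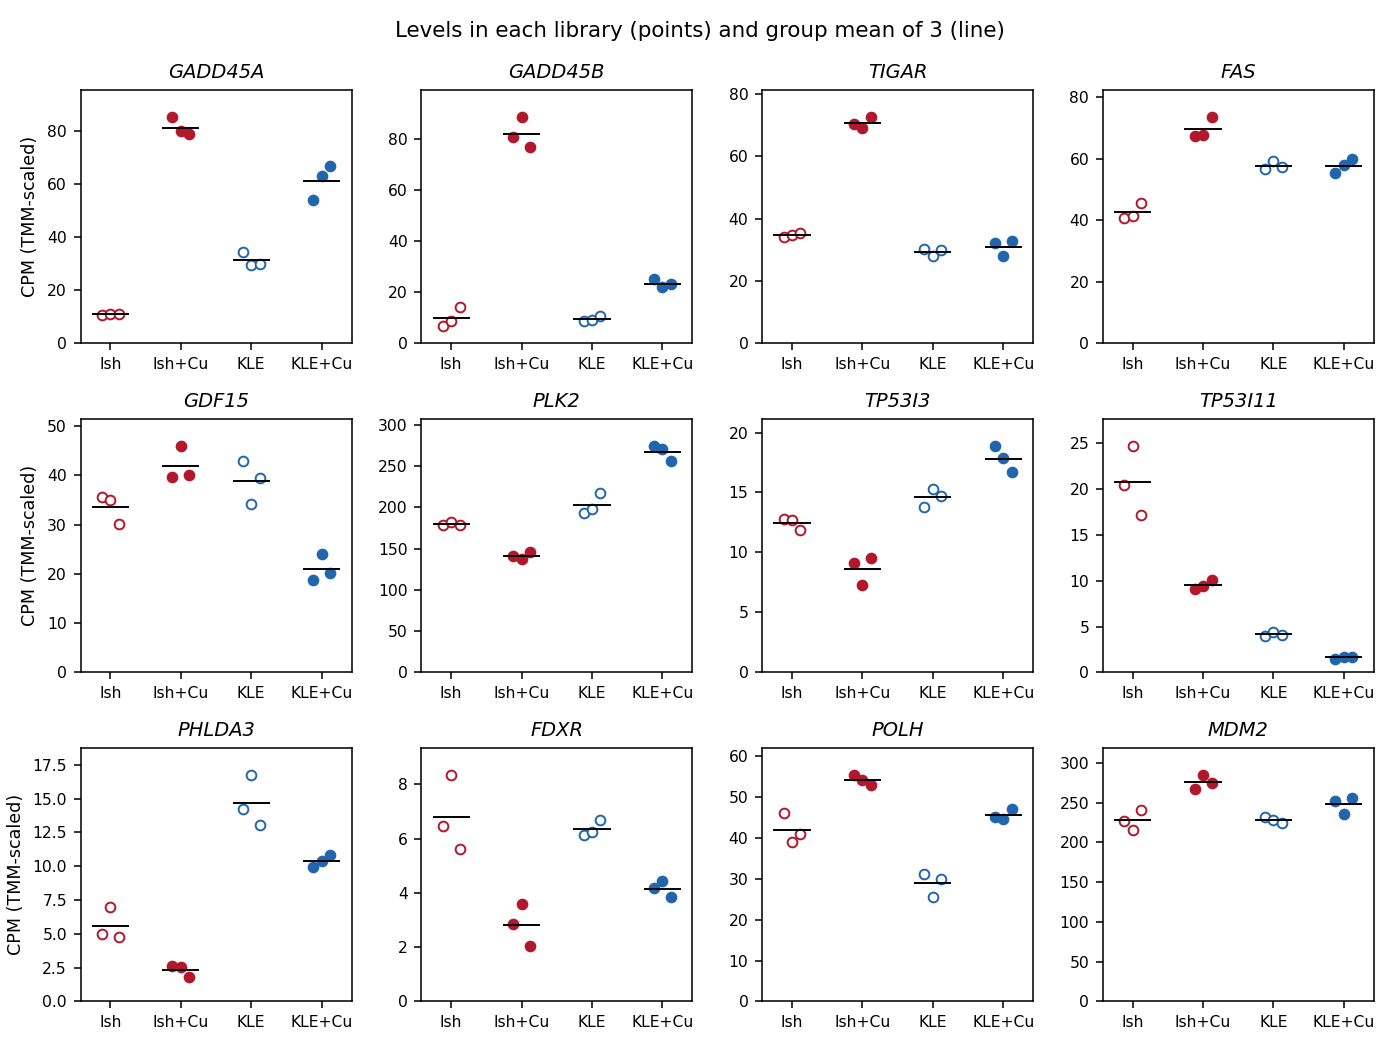
TMM-scaled CPM (y axes, each from 0) of 12 of the genes in each of the 12 libraries, with Ishikawa in red, KLE in blue, untreated libraries as open points, CuCl2 libraries (+Cu) as filled points and the group mean as a line. TIGAR and FAS are higher after copper in Ishikawa cells and overlap in KLE cells, GDF15 moves up in Ishikawa and down in KLE cells, and PLK2 and TP53I3 do the reverse.

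Of the 4 metabolism and redox genes, 1 rose and 3 fell in Ishikawa cells, and 1 rose, 1 fell and 2 were not called in KLE cells. TIGAR, a fructose bisphosphatase that lowers glycolytic flux, lies at chr12:4321213-4360028. It stood at 34.3, 34.9 and 35.5 CPM in untreated and 70.6, 69.1 and 72.6 CPM in treated Ishikawa cells. Untreated KLE libraries were at 30.2, 28.1 and 30.1 CPM and treated ones at 32.4, 27.95 and 32.9 CPM, and these groups overlapped. The log2 change was 1.08 ± 0.06 (adjusted p = 1.04e-09) in Ishikawa cells and 0.08 ± 0.07 (adjusted p = 0.363) in KLE cells. An unnamed gene model on the same strand, AC008012.1, overlaps 42.6% of the TIGAR exon bases and averaged at most 0.863 CPM in any group.

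FDXR, the ferredoxin reductase that feeds electrons to mitochondrial P450 enzymes and iron-sulfur assembly, stood at 6.45, 8.33 and 5.61 CPM in untreated and 2.86, 3.59 and 2.05 CPM in treated Ishikawa cells. The KLE libraries held 6.13, 6.25 and 6.69 CPM before and 4.17, 4.45 and 3.85 CPM after copper. It fell without overlap in both lines, with changes of -1.20 ± 0.21 log2 (adjusted p = 0.000151) and -0.61 ± 0.16 log2 (adjusted p = 0.00152). TP53I3, a quinone oxidoreductase linked to reactive oxygen species, stood at 12.8, 12.7 and 11.9 CPM and then 9.13, 7.29 and 9.52 CPM in Ishikawa cells. In KLE cells it stood at 13.8, 15.3 and 14.7 CPM and 18.9, 17.9 and 16.7 CPM. Copper lowered it in Ishikawa cells (-0.47 ± 0.12 log2, adjusted p = 0.00333) and raised it in KLE cells (0.29 ± 0.09 log2, adjusted p = 0.00772), without overlap in either, although the KLE call was lost with limma on log2 TPM. SESN1, a sestrin that restrains mTORC1, stood at 14.9, 16.1 and 18.5 CPM and then 12.4, 9.76 and 12 CPM in Ishikawa cells. Among KLE libraries the untreated ones had 13.7, 11.6 and 12.4 CPM and the treated ones 12.5, 12.8 and 10.4 CPM, which overlapped. It fell in Ishikawa cells (-0.48 ± 0.12 log2, adjusted p = 0.00224) and its KLE value was -0.08 ± 0.11 log2 (adjusted p = 0.586).

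The last role holds the antiproliferative gene BTG2, the stress kinases PLK2 and PLK3 and the secreted factor GDF15, of which 2 rose and 2 fell in each line. PLK3 rose and BTG2 fell in both, while GDF15 and PLK2 changed sides. GDF15, a cytokine of cellular stress at chr19:18386158-18389176, stood at 35.6, 34.9 and 30.2 CPM in untreated and 39.7, 45.9 and 40.1 CPM in treated Ishikawa cells. KLE cells had 42.97, 34.2 and 39.5 CPM untreated and 18.7, 24.03 and 20.1 CPM treated. The treated libraries were above the untreated ones in Ishikawa cells and below them in KLE cells. On the log2 scale the change was 0.38 ± 0.08 (adjusted p = 0.00109) in Ishikawa cells, a call lost with limma on log2 TPM, and -0.89 ± 0.09 (adjusted p = 3.4e-07) in KLE cells.

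PLK2, a polo-like kinase of S phase, stood at 179, 182 and 179 CPM in untreated and 141, 137 and 146 CPM in treated Ishikawa cells. Untreated KLE libraries were at 193, 198 and 217 CPM and treated ones at 274, 271 and 256 CPM. It moved opposite to GDF15, with a change of -0.29 ± 0.05 log2 in Ishikawa cells (adjusted p = 5.5e-05) and one of 0.40 ± 0.04 log2 in KLE cells (adjusted p = 2.96e-10). PLK3, a related kinase, stood at 5.60, 6.81 and 5.06 CPM and then 9.19, 9.17 and 8.13 CPM in Ishikawa cells. The KLE libraries held 8.81, 10.4 and 9.78 CPM before and 14.3, 13.7 and 17.4 CPM after copper. It rose without overlap in both lines, by 0.64 ± 0.15 log2 (adjusted p = 0.00111) and 0.64 ± 0.11 log2 (adjusted p = 5.16e-06). BTG2, which promotes mRNA deadenylation, stood at 16, 14.9 and 14.1 CPM and then 12.7, 9.88 and 12 CPM in Ishikawa cells. In KLE cells it stood at 7.26, 8.07 and 8.30 CPM and 4.11, 5.84 and 6.05 CPM. It was lower after copper in both lines (-0.33 ± 0.11 log2, adjusted p = 0.0201, and -0.57 ± 0.15 log2, adjusted p = 0.00187), and the Ishikawa call was lost without control 1, without treated replicate 2 and under DESeq2.

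A group of 7 of the genes is widely known to be induced by other stress factors as well: GDF15, TNFRSF10B, GADD45A, GADD45B, PLK2, PLK3 and BTG2. In Ishikawa cells 5 of these 7 rose and 2 fell, with a median log2 change of 0.40. Of the other 22 genes, 21 were tested, of which 7 rose, 13 fell and 1 was not called, with a median of -0.34. In KLE cells 4 of the 7 rose, 2 fell and 1 was not called, with a median of 0.40. The other 21 had 5 rises, 10 falls and 6 not called there, with a median of -0.08. Called shares over all genes were 33.8% higher and 35.3% lower in Ishikawa cells, and 25.6% and 25.2% in KLE cells. The list of 7 was chosen with earlier results of these data known, and it holds GADD45A and GADD45B, the largest rises in both lines. These are counts over lists and no test compares them.

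Side by side, 6 of the 28 genes (21.4%) rose in both lines, near the 18.9% of all 12806 genes tested in both: MDM2, TNFRSF10A, POLH, GADD45A, GADD45B and PLK3. A further 11 (39.3%) fell in both, against 19.3% of all genes: CCNG1, ZMAT3, TP53INP1, NINJ1, PHLDA3, TP53I11, XPC, DDB2, RRM2B, FDXR and BTG2. Among the KLE calls behind these counts, MDM2 was lost under 4 of 17 alternative settings, ZMAT3 under 10 and XPC under 8. Among the Ishikawa calls, POLH was lost under 2 of 17 and BTG2 under 3. Calls went in opposite directions for 3 of the 28 (10.7%), namely GDF15, PLK2 and TP53I3, against 350 of 12806 genes (2.73%) tested in both lines. The Ishikawa call of GDF15 and the KLE call of TP53I3 were lost with limma on log2 TPM, while both PLK2 calls held in every alternative. A call was made in Ishikawa cells and not in KLE cells for 7 genes (25%), near the 28.4% of all genes: PPM1D, FAS, TNFRSF10B, TRIAP1 and TIGAR higher and AEN and SESN1 lower. The difference between the lines was itself called for 6 of the 7, TRIAP1 being the exception (-0.19 ± 0.12 log2, adjusted p = 0.215). Across the 28 genes the log2 changes of both lines had a Pearson r of 0.754 and a Spearman rho of 0.697. Across all 12806 genes these were 0.721 and 0.665. The lines share no library, and genes are not independent replicates.

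**Figure D3:**
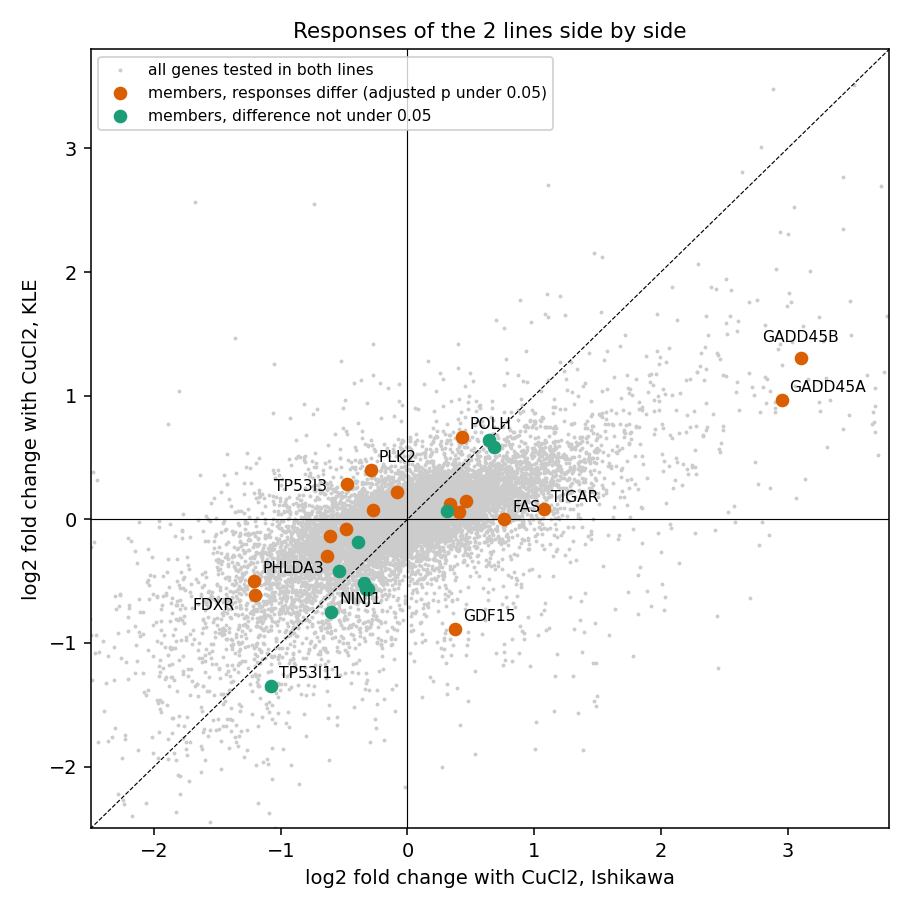
Log2 fold change with CuCl2 in Ishikawa cells (x axis) and KLE cells (y axis) for 28 p53 target genes (coloured) and all genes tested in both lines (grey, 12681 drawn and 125 outside the axes); the dashed line marks equal changes. GDF15 is to the right of 0 and far below it, PLK2 and TP53I3 are to the left of 0 and above it, and GADD45A and GADD45B lie far below the dashed line.

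The difference between the responses was tested directly in a fit of all 12 libraries, as the KLE log2 change minus the Ishikawa log2 change. It was called for 18 of the 28 genes (64.3%), 10 with the higher value in KLE cells and 8 with the lower. Over all 13663 genes tested 45.4% were called, 24.6% and 20.8% in these directions. A difference of at least 1 on the log2 scale was called for 3 genes, all with the lower value in KLE cells, where 3.15% of all genes had such a higher and 3.73% such a lower value. The largest negative differences were GADD45A at -1.93 ± 0.11 (adjusted p = 9.36e-12), GADD45B at -1.74 ± 0.27 (adjusted p = 0.000385) and GDF15 at -1.21 ± 0.14 (adjusted p = 6.52e-07). They were followed by TIGAR at -0.94 ± 0.09 (adjusted p = 4.18e-08), FAS at -0.71 ± 0.08 (adjusted p = 3.95e-07) and TNFRSF10B at -0.29 ± 0.06 (adjusted p = 0.000326). In the first pair the rise was smaller in KLE cells, GDF15 fell there, and the last 3 were not called there.

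On the positive side the largest differences were TP53I3 at 0.82 ± 0.15 (adjusted p = 9.37e-05), PHLDA3 at 0.78 ± 0.23 (adjusted p = 0.00851) and PLK2 at 0.75 ± 0.06 (adjusted p = 3.5e-09). FDXR at 0.65 ± 0.26 (adjusted p = 0.0484), ZMAT3 at 0.53 ± 0.10 (adjusted p = 0.000135) and SESN1 at 0.46 ± 0.17 (adjusted p = 0.0259) came next. PHLDA3, FDXR and ZMAT3 fell in both lines and fell less in KLE cells. The FDXR call was lost under 14 of 22 alternative settings, that of SESN1 under 6 and that of PHLDA3 without treated Ishikawa replicate 3. For the 10 genes with no called difference the log2 differences ran from -0.22 ± 0.23 (SE) for TP53I11 to 0.26 ± 0.11 for XPC, and these intervals do not show equal responses. TNFRSF10A had -0.04 ± 0.09 and PLK3 0.06 ± 0.18. The count of 10 genes with a higher KLE value went down to 6 without treated Ishikawa replicate 2.

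Before treatment the lines already differed in 19 of the 28 genes (67.9%), 9 higher and 10 lower in KLE cells, against 50% of all 13663 genes (24.5% higher and 25.6% lower). The untreated groups did not overlap in any of the 19. Of all genes tested 47.2% were both called and without overlap, which is 94.2% of all called genes. Among the 28, 2 genes were at least 2-fold higher and 1 lower, where 5.52% and 5.15% of all genes were. GADD45A was 2.86-fold higher in untreated KLE cells (1.52 ± 0.09 log2, adjusted p = 1.03e-12), and PHLDA3 was 2.58-fold higher (1.37 ± 0.14 log2, adjusted p = 3.06e-08). TP53I11 was 5.02-fold lower (-2.33 ± 0.14 log2, adjusted p = 8.04e-13). All 3 death receptors were higher in untreated KLE cells, TNFRSF10A by 0.74, FAS by 0.44 and TNFRSF10B by 0.39 log2. PLK3 (0.71) and PERP (0.58) were higher as well. The other large differences were lower in KLE cells, with BTG2 at -0.93, RRM2B at -0.75, POLH at -0.54, NINJ1 at -0.48 and SESN1 at -0.39 log2. MDM2 and GADD45B were not called, at 0.00 ± 0.04 (adjusted p = 0.958) and -0.07 ± 0.22 (adjusted p = 0.823).

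On the TPM scale, which allows levels of different genes to be compared, the group means of the 29 genes ran from 0.0717 to 227 TPM. In untreated Ishikawa cells CCNG1 was the most abundant at 227 ± 13.3 TPM (mean ± SD, n = 3), followed by PLK2 at 137 ± 4.70, MDM2 at 115 ± 3.39 and TNFRSF10B at 107 ± 3.16 TPM. The same 4 were the only ones above 100 TPM in untreated KLE cells, at 171 ± 5.57, 148 ± 11.8, 113 ± 7.92 and 136 ± 0.310 TPM. After copper GADD45B reached 134 ± 14.9 TPM and GADD45A 118 ± 4.28 TPM in Ishikawa cells, near MDM2 at 132 ± 4.73 TPM. In treated KLE cells they reached 37.7 ± 3.79 and 90.5 ± 8.46 TPM. At the low end TP53I11 stood at 1.21 ± 0.146 TPM in treated KLE cells, PHLDA3 at 1.69 ± 0.241 TPM in treated Ishikawa cells and SPATA18 at 0.0790 ± 0.00436 TPM there. Genes under 10 TPM numbered 4 in untreated and 9 in treated Ishikawa cells, and 6 in KLE cells with or without copper. The median TPM of the 29 genes was 19.2, 22.8, 20.3 and 22.9 in untreated Ishikawa, treated Ishikawa, untreated KLE and treated KLE cells.

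**Figure D4:**
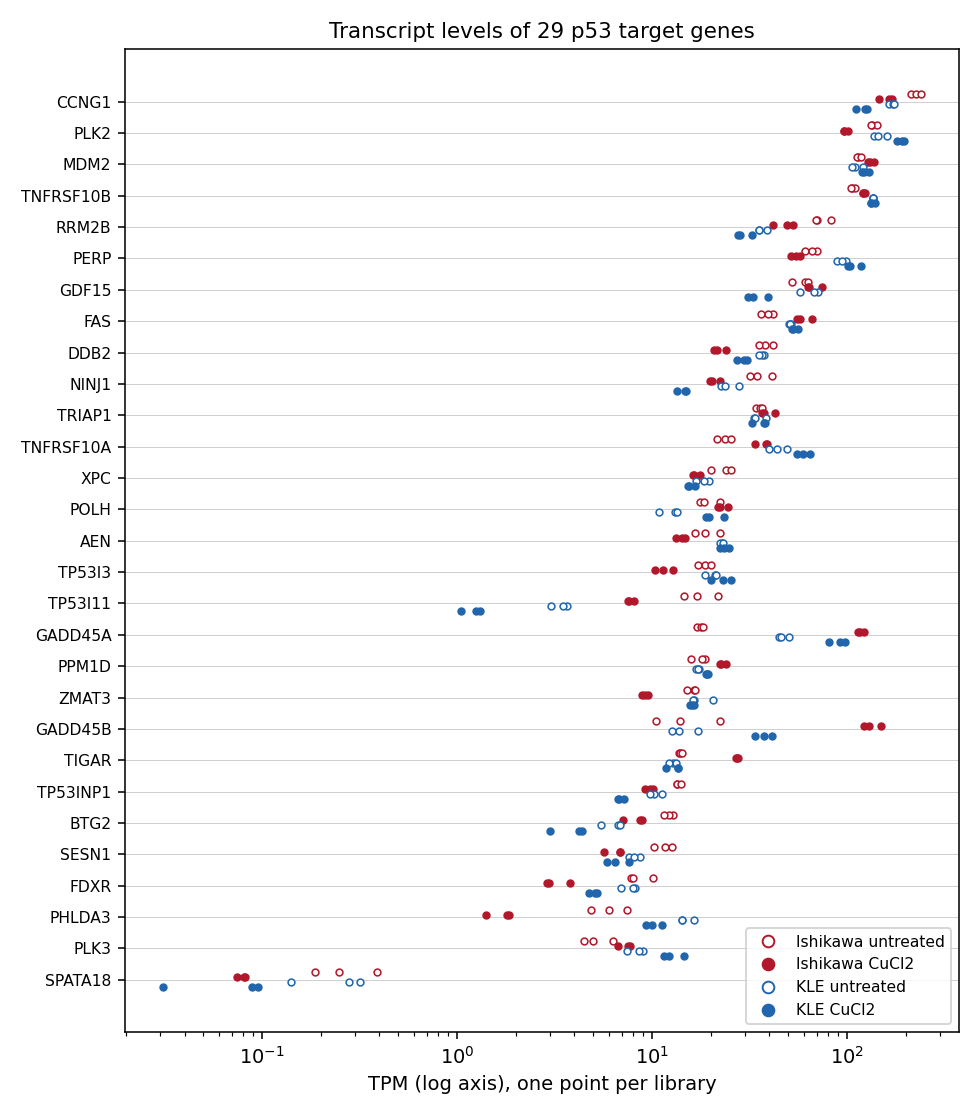
TPM (log x axis, 1 point per library) of all 29 genes in Ishikawa cells (red) and KLE cells (blue), untreated (open) and with CuCl2 (filled), ordered by the untreated Ishikawa mean. CCNG1 is at the top and SPATA18, which was too low to test, is at the bottom.

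MDM4, the MDM2 partner that blocks p53 transactivation, rose in both lines (0.22 ± 0.06 and 0.14 ± 0.05 log2). CDKN1A, the p21 cell cycle inhibitor and a further p53 target, stood at 15.7, 17.1 and 15.6 CPM and then 23.6, 25.1 and 23.6 CPM in Ishikawa cells. Among KLE libraries the untreated ones had 35.7, 31.7 and 38.7 CPM and the treated ones 35.9, 40.1 and 40.7 CPM. It rose by 0.63 ± 0.09 (adjusted p = 1.36e-05) in Ishikawa cells, its KLE value was 0.14 ± 0.07 (adjusted p = 0.0993), and the difference was -0.44 ± 0.12 (adjusted p = 0.00374).

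Of 19 regulators of p53, 12 were higher and 2 lower in Ishikawa cells, and 3 were higher and 3 lower among 18 tested in KLE cells. These calls make 73.7% and 33.3% of those tested, against 69.1% and 50.8% of all genes. Over all genes 33.8% were higher and 35.3% lower in Ishikawa cells, and 25.6% and 25.2% in KLE cells. The largest Ishikawa rises were the ubiquitin ligase RCHY1 (0.93 log2), the deacetylase SIRT1 (0.84) and the p53 relative TP63 (0.65), and the 2 falls were the checkpoint kinases CHEK2 (-0.52) and ATR (-0.23). In KLE cells RCHY1 (0.30), the checkpoint kinase CHEK1 (0.23) and MDM4 rose, and the falls included CHEK2 (-0.50) and the ribosomal protein gene RPL5 (-0.13). Median log2 changes of the regulators were 0.23 in Ishikawa cells and 0.01 in KLE cells, against -0.01 and -0.002 over all genes.

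A list of 35 further p53 targets, of which 34 were tested, had 10 higher and 18 lower in Ishikawa cells and 8 higher and 16 lower in KLE cells. That is 82.4% and 70.6% called, against 69.1% and 50.8% of all genes. All-gene shares were 33.8% higher and 35.3% lower in Ishikawa cells, and 25.6% and 25.2% in KLE cells. The list's median log2 changes were -0.23 in both lines, against -0.01 and -0.002 over all genes. ATF3, a stress transcription factor (3.48 log2), the sestrin SESN2 (2.47) and SERTAD1 (1.32) rose most in Ishikawa cells. The largest falls there were the calcium channel gene ORAI3 (-2.12 ± 0.30), the glutaminase GLS2 (-2 ± 0.34) and the decoy receptor TNFRSF10C (-1.63 ± 0.39). These falls rest on low counts, between 4 and 16 in each treated Ishikawa library. In KLE cells SFN, the 14-3-3 sigma gene (1.20), SERTAD1 (0.93) and ATF3 (0.84) rose most, and ORAI3 (-0.91), the autophagy gene DRAM1 (-0.78) and TNFRSF10C (-0.62) fell most.

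The start-site decamers printed above went with no single direction. FAS rose, and DDB2, AEN, FDXR, PLK2 and SESN1 fell in Ishikawa cells, while in KLE cells PLK2 rose, DDB2 and FDXR fell and FAS, AEN and SESN1 were not called. Other motifs were searched in the same windows, on both strands. TGATGNAAT, a form of the C/EBP-ATF composite element, was in none of the 36 windows and in 0.991% of all windows. TGANTCA, a looser form of the AP-1 motif, was in 4 windows (11.1%) of FAS, MDM2 and PERP, against 7.71% of all windows. TGCNCNC, a looser form of the core of the metal response element, was in 29 windows (80.6%) of 19 genes, against 55.9% of all windows. Window shares count a site again where windows of a gene overlap, such as the TGANTCA site of MDM2 and the TGCNCNC site of CCNG1.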

How the data were processed

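RNA of 12 libraries was measured, 3 per group, with TRIzol extraction, oligo(dT) enrichment and paired-end reads of 150 bp per the labels' protocols. The submitters' processing notes name R 4.2.2, HISAT2 2.1.0, Bowtie2 2.2.8, fastp 0.18.0, DESeq2 and RSEM on GRCh38.p14; what each tool did is not given in the sources used here, nor is the annotation release. The authors deposited expected counts, the same values rounded to whole counts (differences of at most 0.5), and TPM, which is also what the tables named for FPKM hold per the file headers. Whole counts were tested and TPM was used for levels between genes.

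edgeR 4.0.16 (R 4.3.3) was used with its two-sided quasi-likelihood test, robust, on genes kept by filterByExpr and scaled by TMM; p-values were adjusted by Benjamini-Hochberg over all genes tested and called under 0.05. Each line's 6 libraries were fitted alone; the difference between responses and the untreated lines are contrasts of all 12, so differences need not equal the subtraction of both lines' values. The SE is the absolute log2 change over the square root of F. The fits were tested on simulated data in which 200 genes changed, far fewer than were called here. They recovered 63 to 77% of 1.5-fold and 80 to 91% of 2-fold changes over the 4 comparisons. False calls made up 2.72 to 6.15% of calls, the highest share being in Ishikawa cells. DESeq2 1.42.0, limma-voom, other scalings and filters, limma 3.58.1 on log2 TPM with pseudocounts of 1 and 0.1 (genes with a mean TPM of at least 1), a replicate block and leaving out each library were alternatives.

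The members, lists and rule were chosen with earlier results of these data known. Values in every library are given for MDM2, for up to 6 called non-overlapping genes per direction and line, and for up to 6 per direction of the line contrasts; of other pathway genes, the 3 largest called per direction and line, with MDM4 and CDKN1A. A result that this rule takes is not reported here. Exon overlaps are from GENCODE v29 and promoters from RefSeq.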

Additional observations from a re-analysis of the deposited data

Results flagged for a closer look

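For 18 of the 28 tested genes, the responses of KLE and Ishikawa cells to copper differed by a test of the difference itself (edgeR, adjusted p under 0.05, KLE log2 change minus Ishikawa log2 change). Each is given as a value with no explanation, and 45.4% of all genes tested were called in the same way. Calls went opposite ways in the lines for 3 genes: GDF15 had a difference of -1.21 (adjusted p = 6.52e-07), PLK2 of 0.75 (3.5e-09) and TP53I3 of 0.82 (9.37e-05). With limma on log2 TPM, GDF15 was no longer called in Ishikawa cells and TP53I3 no longer in KLE cells.

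Among genes higher in both lines, the rise was smaller in KLE cells for GADD45A, at -1.93 (adjusted p = 9.36e-12), GADD45B, at -1.74 (0.000385) and MDM2, at -0.16 (0.0435), and larger for POLH, at 0.29 (0.0271). Genes called higher in Ishikawa cells alone differed by -0.94 for TIGAR (adjusted p = 4.18e-08), -0.71 for FAS (3.95e-07), -0.29 for TNFRSF10B (0.000326) and -0.26 for PPM1D (0.0462).

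Among genes lower in both lines, the difference was 0.78 for PHLDA3 (adjusted p = 0.00851), 0.65 for FDXR (0.0484), 0.53 for ZMAT3 (0.000135) and 0.39 for DDB2 (0.00725). AEN at 0.40 (adjusted p = 0.00921) and SESN1 at 0.46 (0.0259) were lower in Ishikawa cells alone, and PERP at 0.36 (0.000566) was higher in KLE cells alone. Of the 18, the calls for FAS, GADD45A, GADD45B, GDF15, PERP, PLK2, TIGAR, TNFRSF10B, TP53I3 and ZMAT3 held under all 22 alternatives run, and the other 8 were lost under at least 1: FDXR under 14, PPM1D under 11, MDM2 under 10, POLH under 8, SESN1 under 6, AEN under 2, and PHLDA3 and DDB2 under 1 each.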

How the results depend on the processing

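None of the called values of these genes changed sign under the alternatives run. Calls held in every alternative for 22 of 27 genes in Ishikawa cells (17 alternatives), 17 of 21 in KLE cells (17), 10 of 18 for the difference (22) and 17 of 19 for the untreated lines (16), leaving aside the fold threshold. With an absolute log2 change of at least 1 required, 3 genes were higher and 3 lower in Ishikawa cells, 1 and 1 in KLE cells, 0 and 3 for the difference, and 2 and 1 for the untreated lines. Leaving out each library in turn gave 12 higher and 13 to 15 lower genes in Ishikawa cells, 8 to 10 and 10 to 11 in KLE cells, 6 to 10 and 6 to 9 for the difference, and 9 to 11 and 10 for the untreated lines. The 6 higher came without treated Ishikawa replicate 2.

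The balance of calls moved with the scaling, and with limma on log2(TPM + 1), which changes the unit, filter and test together. Over all genes in Ishikawa cells TMM factors gave 4514 higher and 4714 lower, library totals 3370 and 6068, and limma on log2(TPM + 1) 2828 and 5420. Library totals moved the overall median log2 change from -0.01 to -0.17. Of the 28 genes, library totals called 11 higher and 16 lower, while limma on log2(TPM + 1) called 9 and 16. Genes called higher over all genes in KLE cells numbered 3330 with edgeR on counts and 2097 with limma on log2(TPM + 1). Those called lower for the difference numbered 2848 and 1760. The cause was not tested.

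Correlations of deviations between same-numbered replicates were 0.0675 to 0.192 in Ishikawa cells, against -0.163 to 0.0762 for differently numbered ones. In KLE cells they were -0.0974 to -0.036, against 0.00135 to 0.0808. Whether replicates of the same number belong together was not tested. With the replicate number as a block, 12 genes were higher and 15 lower in Ishikawa cells, 9 and 11 in KLE cells, 10 and 7 for the difference, and 9 and 10 for the untreated lines.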
